A study of Mus musculus with 9 samples.

Results

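Expression of the genes of the respiratory chain was measured by RNA-seq in RAW264.7 cells, a mouse macrophage line that grew out of a virus-induced tumor. A gene of the deposited table was taken as a member if GENCODE M21 lists it as protein-coding and if its symbol begins with Nduf, Uqcr, Atp5 or Cox4 to Cox8, is Sdha, Sdhb, Sdhc or Sdhd, or names a mitochondrial Nd, Co, Cytb or Atp gene. The rule used no measured value. It found 103 members among 28137 genes, of which 90 are encoded in the nucleus and 13 in mitochondrial DNA. The nuclear members are 38 genes of complex I, 8 of its assembly, 4 of complex II, 8 of complex III, 15 of complex IV and 17 of complex V. Grouping was by symbol, so that Ndufa4, now known as a subunit of complex IV, and its relative Ndufa4l2 are counted with complex I. The mitochondrial members are 7 genes of complex I, 1 of complex III, 3 of complex IV and 2 of complex V.

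The series compares a control siRNA (NC), siRNA against SFRP2, a secreted modulator of Wnt signaling, and siRNA against RAB6A, a small GTPase of the Golgi, with 3 libraries in each group. Per the labels, all 9 cultures were transfected with 60 nM siRNA for 6 h, received lipopolysaccharide at 100 ng/ml after a further 12 h in complete medium, and were harvested after 24 h of polarization, so the controls were activated too. The sample titles carry 6H, which the labels do not explain. The published methods add interferon gamma to the polarization and give another siRNA dose and other times, and which holds for these libraries was not settled. Titles siRNA-1 to siRNA-3 belong to the libraries labeled SFRP2-siRNA. The study lists different siRNA sequences under the same names, so these libraries may each stand for another siRNA, which the labels do not say. The study says in general that its data come from independent experiments, but the labels do not say that the libraries of a group came from separate cultures, so p-values measure the spread between libraries, which may be technical.

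The files hold FPKM, that is, fragments scaled by exon length and by the library's total. Between 32297214 and 46544869 reads per library were recovered from them. All 9 macrophage markers examined had a mean of at least 1 FPKM in every group, and none of the 14 markers of other cells present in the table did. The macrophage markers summed to 3979 to 5050 FPKM per library, and the other markers to 2.39 to 3.21 FPKM in NC and SFRP2-siRNA and 3.65 to 4.75 with RAB6A-siRNA. Whether these sums bear on the results below was not tested. Within the macrophage list, Lyz2, Csf1r, Spi1 and Fcgr1 were called lower and Ptprc was called higher with RAB6A-siRNA, as were 3 of the 4 other markers that passed the filter on low values. Rab6a itself was at 24.3, 27.3 and 25.5 FPKM in NC, 26.6, 28.6 and 25.8 with SFRP2-siRNA and 21.2, 20.7 and 20.4 with RAB6A-siRNA (log2 fold change -0.31, SE 0.06, adjusted p = 0.0024 against NC), and this difference was -0.09 after correction for GC content and length, where it was no longer called (adjusted p = 0.23). Sfrp2 had 2 to 4 reads in each library (0.0197 to 0.0567 FPKM) and cannot check the SFRP2-siRNA label.

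The respiratory chain sits in the inner mitochondrial membrane. Complexes I and II pass electrons from NADH and succinate to ubiquinone, complex III passes them on to cytochrome c, complex IV reduces oxygen, and complex V uses the proton gradient to make ATP. All complexes except complex II combine subunits translated in the cytosol from nuclear genes with subunits translated inside the organelle from mitochondrial DNA. Macrophages activated by lipopolysaccharide are known to shift energy production from respiration toward glycolysis.

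Copies of mitochondrial DNA in the nucleus bear on the mitochondrial values, because a read that matches both places equally well can be dropped or split. In GENCODE M21 (GRCm38), pseudogenes on chromosome 1 hold over 90% of the transcript of mt-Co2, mt-Co3, mt-Atp6, mt-Nd3 and mt-Nd4l at an identity of 99.7% or more. For mt-Nd4 the share is 63.6%, and for mt-Co1 it is 31.3%, since Gm29216 holds 483 bases of it. The stretches below are shown because each pair differs by 1 base over its whole alignment, and that base is in capitals. In mt-Co1 and Gm29216 (A1066T, counted from the first base of the mt-Co1 transcript), the stretches lie at chrM:6390-6413 on the plus strand and at chr1:24616165-24616188 on the minus strand. In mt-Nd3 and Gm28438 (T3C, counted in the same way), they lie at chrM:9459-9481 on the plus strand and at chr1:24613097-24613119 on the minus strand.
mt-Co1: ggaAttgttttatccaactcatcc
Gm29216: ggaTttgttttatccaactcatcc
mt-Nd3: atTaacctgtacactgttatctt
Gm28438: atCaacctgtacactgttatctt

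A read of either gene that does not cover the capital base cannot be placed within those alignments. How the authors treated such reads is not given in the sources used here. The values of the 5 members with a near-complete copy are therefore uncertain. mt-Nd1, mt-Nd2, mt-Nd4, mt-Nd5, mt-Nd6, mt-Cytb and mt-Co1 lack a near-complete copy on chromosome 1, although a pseudogene on chromosome 2, Gm13340, matches mt-Co1 at 97.6% identity. Nuclear members share sequence with other genes too: in all, 46 of the 103 members share a stretch of at least 100 bases at 95% identity or more with another gene. Not every such stretch is a copy of the member. That of Atp5j covers 124 bases of Gabpa, a protein-coding gene on the same chromosome, and those of Ndufaf7 in 22 genes cover at most 165 bases. Among the nuclear ones with copies at a high level are Ndufa12, Atp5l, Atp5g1, Cox7c, Uqcr11 and Cox5b.

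The mitochondrial members dominated the chain in all groups. They took 95.2% ± 0.486 of the FPKM of all members in NC (SD, n = 3), 96.3% ± 0.625 with SFRP2-siRNA and 93.6% ± 0.807 with RAB6A-siRNA. As a share of all reads in a library, they took 9.60% ± 0.837, 11.3% ± 1.21 and 11.1% ± 0.733. The nuclear members together took 0.675% ± 0.0101, 0.619% ± 0.0298 and 0.766% ± 0.0457 of the reads. These values are shares of a library and do not give RNA per cell. Where a share is lower in bulk RNA, fewer mitochondria per cell, fewer cells that express a gene and less of its RNA per cell cannot be told apart.

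With RAB6A-siRNA, the share of mitochondrial reads hid opposite differences between mitochondrial genes. mt-Nd1, a membrane subunit of complex I, was at 18581, 22539 and 19507 FPKM in NC, 21872, 24966 and 28119.6 with SFRP2-siRNA and 2515, 2314 and 2894 with RAB6A-siRNA. mt-Co1, the catalytic subunit of complex IV, was at 22629.9, 24782 and 22231 FPKM in NC, 24284, 26752 and 27406 with SFRP2-siRNA and 61559.8, 54675 and 59864 with RAB6A-siRNA. For both genes, the RAB6A-siRNA libraries lay apart from the other 6 libraries, on the low side for mt-Nd1 and on the high side for mt-Co1. Against NC, mt-Nd1 fell (log2 fold change -2.97, SE 0.14, adjusted p = 2.6e-06, limma on log2(FPKM + 0.1), Benjamini-Hochberg adjustment over all genes tested). mt-Co1 rose (log2 fold change 1.34, SE 0.17, adjusted p = 0.00023), to 2.53 times the NC mean. The call of mt-Co1 was lost with quantile normalization (log2 fold change 0.22, adjusted p = 0.43) and with no filter on low values (adjusted p = 0.48). The ratio of mt-Nd1 to mt-Co1 FPKM, which no rescaling of a library can change, was 0.821 to 0.909 in NC, 0.901 to 1.03 with SFRP2-siRNA and 0.0409 to 0.0483 with RAB6A-siRNA.

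mt-Co1 accounted for 38.0% ± 1.53 of the mitochondrial members' reads in NC (SD, n = 3), 36.4% ± 1.77 with SFRP2-siRNA and 83.7% ± 1.91 with RAB6A-siRNA. The other mitochondrial members together took 5.96% ± 0.648, 7.20% ± 0.968 and 1.81% ± 0.286 of all reads. As shares of a library's reads, mt-Co1 was therefore higher with RAB6A-siRNA, and the sum over the other mitochondrial members was lower. That sum leaves out mitochondrial RNAs that are not members, and it includes the 5 members made uncertain by near-complete copies. It does not hold for each gene. By limma against NC, 4 mitochondrial members were called higher (mt-Co1, mt-Co3, mt-Atp6 and mt-Atp8) and 6 were called lower.

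**Figure D1:**
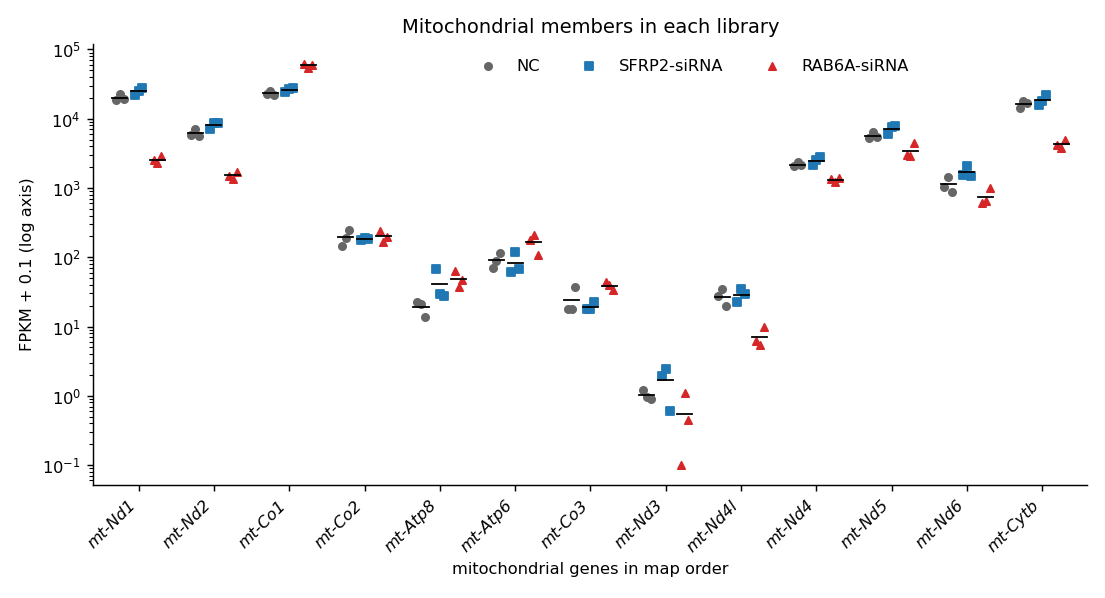
FPKM + 0.1 on a log axis for the 13 mitochondrial members in their order on the mitochondrial map, with 3 libraries per group and a bar at the group mean. With RAB6A-siRNA (triangles), mt-Nd1, mt-Nd2 and mt-Cytb lie below and mt-Co1 lies above the other libraries, and the genes from mt-Co2 to mt-Nd4l are far lower than their neighbors in all groups.

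The other mitochondrial genes of complex I also had lower means with RAB6A-siRNA than in NC. mt-Nd2, a neighbor of mt-Nd1 on the map, went from 5754, 7165 and 5552 FPKM in NC to 1501, 1362 and 1709 (log2 fold change -2.01, SE 0.14, adjusted p = 1.1e-05). mt-Nd4 went from 2047, 2370.3 and 2119 to 1359.7, 1212 and 1371 FPKM (log2 fold change -0.73, SE 0.10, adjusted p = 0.00027), and mt-Nd5 went from 5253, 6419 and 5409.8 to 2984, 2905 and 4469.7 FPKM (log2 fold change -0.74, SE 0.19, adjusted p = 0.0076). The groups did not overlap for any of these 3 genes. That held for 9843 of all 12712 genes tested in this comparison, so it does not set these or later genes apart. The call of mt-Nd5 was lost with quantile normalization (log2 fold change -0.39, adjusted p = 0.074) and with no filter on low values (adjusted p = 0.12).

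mt-Nd6, the only mitochondrial protein gene of the opposite strand, was at 1049, 1452 and 879 FPKM in NC and at 610.5, 646 and 991 with RAB6A-siRNA, and did not pass the test (log2 fold change -0.59, SE 0.23, adjusted p = 0.051). Its groups overlapped. It passed without RAB6A-siRNA replicate 3 (log2 fold change -0.81, adjusted p = 0.0099) and without NC replicate 3 (log2 fold change -0.76, adjusted p = 0.031), and after GC and length correction (log2 fold change -1.96, adjusted p = 0.00014). It also passed with quantile normalization (adjusted p = 0.0070), voom (0.0037), rescaling (0.021), all 9 libraries in 1 fit (0.040), median-of-ratios scaling (0.049), a pseudocount of 1 (0.049) and a filter of 1 FPKM (0.045), so that the missing call depended on the setting. mt-Nd5 and mt-Nd6 overlap at their ends on opposite strands, and whether counting used strand is not given in the sources used here. mt-Cytb, the mitochondrial subunit of complex III, went from 14133, 18254 and 16669 FPKM in NC to 4188, 3772 and 4961 (log2 fold change -1.93, SE 0.16, adjusted p = 2.4e-05), with no overlap.

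The values of mt-Co2, mt-Co3 and mt-Atp6 are those made uncertain by near-complete copies. mt-Co2 had a mean of 195 ± 49.5 FPKM in NC (SD, n = 3) and 200.3 ± 36.0 with RAB6A-siRNA (log2 fold change 0.06, SE 0.20, adjusted p = 0.81). mt-Co3 was at 17.5, 17.8 and 37.3 FPKM in NC and 43.9, 39.1 and 33.2 with RAB6A-siRNA (log2 fold change 0.76, SE 0.28, adjusted p = 0.041), and mt-Atp6, a membrane subunit of complex V, was at 69.5, 88.8 and 114 and 176, 207 and 106 FPKM (log2 fold change 0.82, SE 0.27, adjusted p = 0.024). NC replicate 3 overlapped the RAB6A-siRNA libraries in both genes. Leaving out any of NC replicates 1 and 2 and RAB6A-siRNA replicates 1 and 2 ended both calls, with adjusted p from 0.059 to 0.13. After GC and length correction, the log2 fold changes were 0.02 for mt-Co3 and -0.23 for mt-Atp6.

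The chromosome 1 copies had levels of their own in the table. Gm28437, the copy of mt-Co3, was at 16.9 ± 1.17 FPKM in NC and 33.6 ± 3.15 with RAB6A-siRNA (SD, n = 3). Gm10925, the copy of mt-Atp6, was at 124 ± 21.5 and 322 ± 131 FPKM, and Gm29216, the partial copy of mt-Co1, at 35.6 ± 10.3 and 85.2 ± 7.47 FPKM. On the other side, Gm28438, the copy of mt-Nd3, was at 14.1 ± 4.17 FPKM in NC and 6.62 ± 2.71 with RAB6A-siRNA, and Gm10222, the copy of mt-Nd4l, at 25.9 ± 5.99 and 10.6 ± 1.99 FPKM. Gm28439, the copy of part of mt-Nd4, was at 24.2 ± 5.32 and 15.6 ± 2.76 FPKM. For these 6 copies the NC and RAB6A-siRNA libraries did not overlap. They overlapped for Gm28661, the copy of mt-Co2, at 74.2 ± 14.6 and 81.5 ± 13.1 FPKM. These values are given as levels, with no test.

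mt-Nd4l itself was at 27.3, 34.3 and 19.4 FPKM in NC and 6.11, 5.34 and 9.66 with RAB6A-siRNA (log2 fold change -1.93, SE 0.26, adjusted p = 0.00034), with no overlap. mt-Nd3 had 0 to 32 reads per library and was at 1.10, 0.853 and 0.811 FPKM in NC and 0, 0.987 and 0.351 with RAB6A-siRNA, with no call (log2 fold change -1.47, SE 0.78, adjusted p = 0.12). It was called without RAB6A-siRNA replicate 2 (log2 fold change -2.26, adjusted p = 0.017), with quantile normalization (adjusted p = 0.043), with voom (adjusted p = 0.0499) and after GC and length correction (adjusted p = 0.011). mt-Atp8, a short gene with 117 to 559 reads whose 3′ end overlaps mt-Atp6, was at 22.1, 21.3 and 13.5 FPKM in NC, 67.6, 29.5 and 27.2 with SFRP2-siRNA and 62.6, 37.2 and 47.6 with RAB6A-siRNA (log2 fold change 1.37, SE 0.24, adjusted p = 0.0012 for RAB6A-siRNA against NC). No copy of mt-Atp8 was found on chromosome 1, but only annotated transcripts were searched. The genes beside it, mt-Co2 and mt-Atp6, have near-complete copies there, so the value of mt-Atp8 may be uncertain too. The difference of mt-Atp8 turned to -0.62 after GC and length correction (adjusted p = 0.0049).

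Among the 100 members past the filter on low values, 75 were called at an adjusted p under 0.05 with RAB6A-siRNA against NC, a share of 75.0% beside the 74.1% of all 12712 genes tested that were called. The share of called members was thus close to the background. Their direction was 56 higher and 19 lower, where 37.6% of all genes were called higher and 36.5% lower. With an absolute log2 fold change over 1 in addition, 15 members were higher and 4 lower, beside 17.3% and 12.8% of all genes. The 3 members under the filter in this comparison were Ndufb2, Cox4i2 and Cox6b2. After GC and length correction, 38 members were called higher and 38 lower, where 4619 of the 12712 genes were called higher and 4818 lower. After rescaling to genes outside mitochondrial DNA, 50 members were called higher and 25 lower.

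The nuclear members were called higher in 52 and lower in 13 of 87 cases, with a median log2 fold change of 0.52, where the median of all genes was 0.03. The 13 mitochondrial members were called higher in 4 and lower in 6 cases, with a median of -0.73. After GC and length correction, 37 nuclear members were called higher and 28 lower, and 1 mitochondrial member higher and 10 lower. The nuclear median was 0.08 after this correction and 0.31 after rescaling, which moved the median of all genes to -0.17. The mitochondrial median was -1.45 and -0.92 in these fits. Without correction, the called share of nuclear members was 67.6% in complex I, 87.5% in its assembly, 75% in complex II and 50% in III. It was 84.6% in complex IV and 88.2% in V, beside the 74.1% of all genes.

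**Figure D2:**
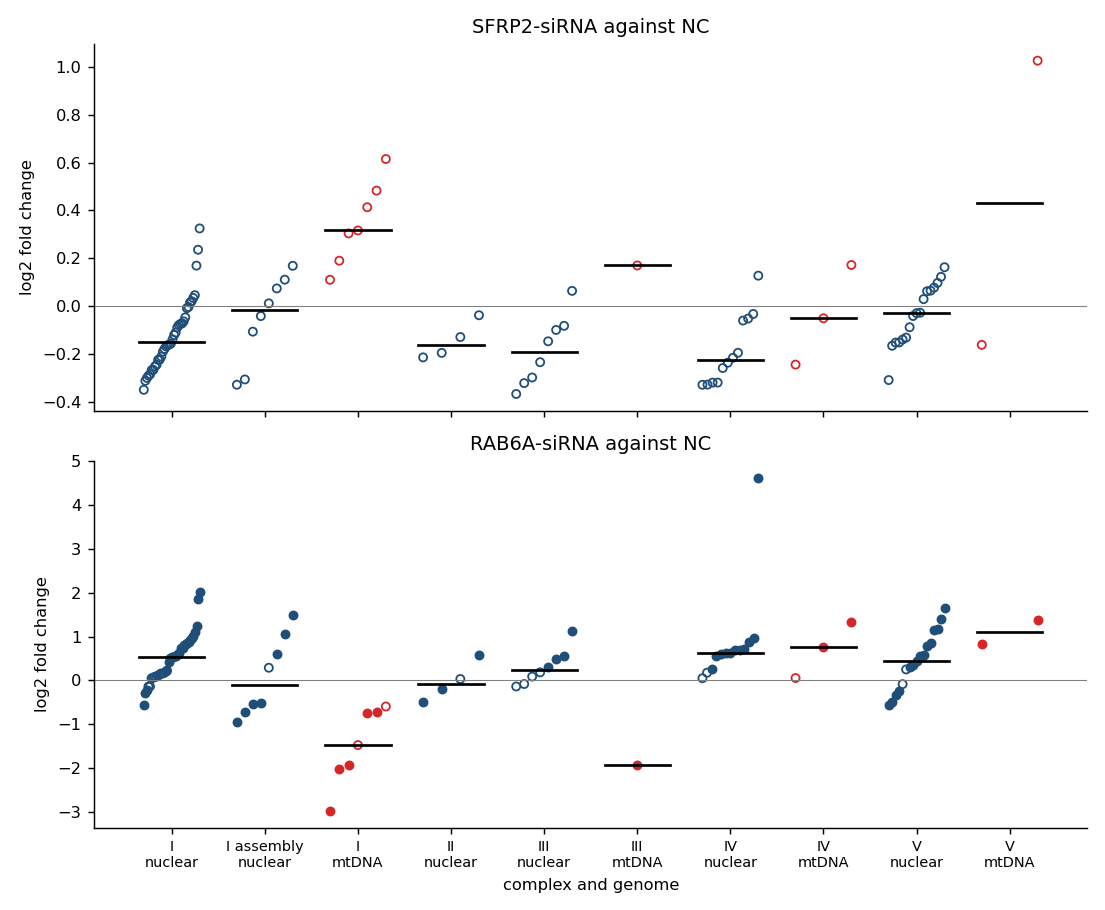
Log2 fold change of each member by complex and genome (blue nuclear, red mitochondrial), for SFRP2-siRNA against NC above and RAB6A-siRNA against NC below; filled points passed an adjusted p of 0.05 and bars are medians. With RAB6A-siRNA, in these values without GC and length correction, nuclear complex IV lies above 0 and mitochondrial complex I below it, and no point is filled for SFRP2-siRNA.

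Complex I was divided between its parts. Of 37 nuclear subunits tested, 22 were called higher and 3 lower, with a median log2 fold change of 0.54 (0.01 after GC and length correction, with 15 higher and 11 lower), while the mitochondrial genes had a median of -1.47. Among the 7 nuclear core subunits, which carry the flavin and the iron-sulfur clusters, 2 were called higher and 2 lower. Ndufs1, the largest of the core subunits, was at 9.33, 8.80 and 8.72 FPKM in NC and 6.41, 6.20 and 5.52 with RAB6A-siRNA (log2 fold change -0.56, SE 0.08, adjusted p = 0.00033), and Ndufv2 was called lower too (log2 fold change -0.22, adjusted p = 0.019). Ndufs3 and Ndufs7 were called higher, by 0.80 and 0.55 on the log2 scale (adjusted p = 0.00015 and 0.00094). The core subunits thus did not share 1 direction.

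The largest rise of a nuclear complex I gene was that of Ndufv3, a supernumerary subunit of the peripheral arm. It was at 6.94, 6.45 and 7.10 FPKM in NC, 7.34, 6.48 and 6.62 with SFRP2-siRNA and 32.4, 29.1 and 23.5 with RAB6A-siRNA (log2 fold change 2.03, SE 0.12, adjusted p = 5e-06), and its log2 fold change was 2.17 after GC and length correction. All RAB6A-siRNA libraries lay above the other 6. Ndufa9, also a supernumerary subunit of that arm, was called lower, with 18.9, 20.8 and 19.5 FPKM in NC and 15.9, 17.2 and 15.4 with RAB6A-siRNA (log2 fold change -0.28, SE 0.07, adjusted p = 0.0058). Quantile normalization ended this call (adjusted p = 0.057).

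The 2 most abundant nuclear complex I genes, both for supernumerary membrane-arm subunits, depended on the correction. Ndufb3 was at 79.4 ± 0.428 FPKM in NC (SD, n = 3) and 124 ± 17.7 with RAB6A-siRNA (log2 fold change 0.64, SE 0.10, adjusted p = 0.00082), and at 0.10 on the log2 scale after correction (adjusted p = 0.43). Ndufb10 was at 86.2 ± 7.81 and 100.0 ± 5.15 FPKM (log2 fold change 0.22, SE 0.08, adjusted p = 0.038), and turned to -0.21 after correction (adjusted p = 0.019). The call of Ndufb10 was also lost without any of NC replicates 1 and 2 and RAB6A-siRNA replicates 1 and 2, with adjusted p from 0.080 to 0.13. Ndufb2, under the filter, was at 0.188, 0.215 and 0.163 FPKM in NC and 0.626, 0.545 and 0.521 with RAB6A-siRNA.

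Assembly factors of complex I, which build the complex and are not part of it, split as well: 3 of 8 were called higher and 4 lower, before and after GC and length correction. Ndufaf1, which works with ECSIT on the membrane arm, fell from 13.1, 12.2 and 11.1 FPKM in NC to 6.14, 5.83 and 6.81 (log2 fold change -0.94, SE 0.09, adjusted p = 4.9e-05). Ndufaf2, also named mimitin, fell from a mean of 6.61 ± 0.572 to 3.97 ± 0.102 FPKM (log2 fold change -0.72, SE 0.08, adjusted p = 0.00013). Ndufaf3, which acts early in assembly, rose from 2.13 ± 0.240 to 6.20 ± 1.15 FPKM (log2 fold change 1.49, SE 0.15, adjusted p = 6.7e-05), and Ndufaf5, a hydroxylase of a core subunit, from 6.43 ± 0.296 to 13.6 ± 0.850 FPKM (log2 fold change 1.07, SE 0.07, adjusted p = 9.4e-06). Ndufaf4, an early factor, and Ndufaf6 were called lower, at -0.53 and -0.50 on the log2 scale (adjusted p = 0.0026 and 0.0011).

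Complex II, the succinate dehydrogenase that also serves the citric acid cycle, has nuclear genes only. Sdha, the flavoprotein, was at 35.6, 34.4 and 35.9 FPKM in NC and 23.0, 26.7 and 25.3 with RAB6A-siRNA (log2 fold change -0.50, SE 0.07, adjusted p = 0.00033). Sdhb, the iron-sulfur protein that binds to it, was at 25.9, 26.5 and 29.0 and 43.6, 41.8 and 36.1 FPKM (log2 fold change 0.57, SE 0.09, adjusted p = 0.00054). Neither gene's groups overlapped, and both kept their direction after GC and length correction (-0.28 and 0.51). Sdhd, a membrane anchor, was called lower at -0.19 (adjusted p = 0.039) with overlapping groups, and lost the call without any of NC replicates 1 and 3 and RAB6A-siRNA replicates 1 and 3 (adjusted p from 0.075 to 0.12). Sdhc, the other anchor, did not pass (log2 fold change 0.03, adjusted p = 0.59). The sum of the 4 genes was 148 ± 4.76 FPKM in NC and 144 ± 5.16 with RAB6A-siRNA (SD, n = 3).

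In complex III, 4 of 8 nuclear genes were called higher and none lower, a share of 50% that is below the 74.1% of all genes. After GC and length correction, 3 were called higher and 4 lower. Uqcrq, a small subunit also known as the ubiquinone-binding protein, rose from 29.5, 30.6 and 29.5 FPKM in NC to 70.1, 71.0 and 55.5 (log2 fold change 1.12, SE 0.10, adjusted p = 3.3e-05, 1.04 after correction). Uqcrh, the hinge protein near cytochrome c1, rose from a mean of 78.1 ± 6.20 to 115 ± 9.18 FPKM (log2 fold change 0.56, SE 0.08, adjusted p = 0.0006). The 2 most abundant genes of the complex, Uqcrb and Uqcr10, were called higher at 0.31 and 0.48, but lower after correction, at -0.29 and -0.31. The large core proteins Uqcrc1 and Uqcrc2 and the Rieske protein Uqcrfs1 did not pass (log2 fold changes 0.09, -0.08 and -0.14).

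Nuclear complex IV showed 11 of 13 tested genes called higher and none lower, with a median log2 fold change of 0.62. This direction depended on the correction, after which 4 were called higher and 2 lower and the median was 0.12. The summed FPKM of its nuclear genes was 1153 ± 50.4 in NC, 979 ± 80.8 with SFRP2-siRNA and 1912 ± 183 with RAB6A-siRNA (SD, n = 3). The largest parts of that sum were Cox8a and Cox6a1, small subunits with short transcripts. Cox8a was at 434, 361 and 420.1 FPKM in NC and 792, 801 and 652 with RAB6A-siRNA (log2 fold change 0.88, SE 0.11, adjusted p = 0.0002, and -0.02 after correction). Cox6a1 was at 214, 185 and 213 and 348, 354 and 306 FPKM (log2 fold change 0.72, SE 0.09, adjusted p = 0.00018, and -0.18 after correction). Cox6c, Cox7a2l and Cox5b remained called higher after correction, at 0.81, 0.42 and 0.47.

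Cox6a2 was the member with the largest difference of all. It encodes the form of subunit VIa known from heart and skeletal muscle, at chr7:128205435-128206387 on the minus strand (GRCm38). Its values were 1.84, 1.19 and 1.11 FPKM in NC, 1.05, 1.66 and 0.762 with SFRP2-siRNA and 51.7, 38.1 and 22.7 with RAB6A-siRNA. The RAB6A-siRNA libraries were all above the other 6, and they covered a wide range. The log2 fold change against NC was 4.63 (SE 0.31, adjusted p = 9.3e-06), and 3.94 after GC and length correction. As a share of Cox6a1 and Cox6a2 together, Cox6a2 took 0.667% ± 0.169 in NC, 0.713% ± 0.306 with SFRP2-siRNA and 9.86% ± 3.02 with RAB6A-siRNA (SD, n = 3). The muscle markers Myh6 and Ckm had a mean under 1 FPKM in all groups.

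**Figure D3:**
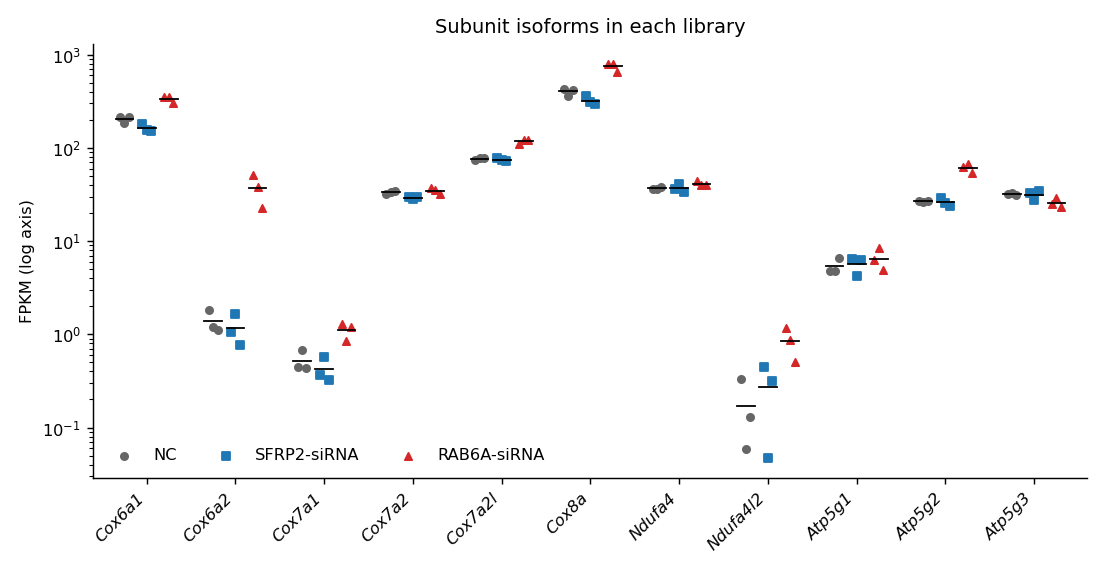
FPKM on a log axis of subunits that exist as alternative forms, with 3 libraries per group and a bar at the group mean. Cox6a2 rises from about 1 FPKM to between 22.7 and 51.7 with RAB6A-siRNA, and Atp5g2 and Atp5g3 part in opposite directions.

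Of 14 genes tested in a list of alternative forms and their usual partners, 10 were called higher and 1 lower with RAB6A-siRNA, a share of 78.6% beside the 74.1% of all genes, and 4 higher and 4 lower after GC and length correction. Several of the other alternative forms were weakly expressed. Cox7a1, also a muscle form, was at 0.449, 0.674 and 0.440 FPKM in NC and 1.29, 0.840 and 1.20 with RAB6A-siRNA, from 6 to 25 reads (log2 fold change 0.96, SE 0.24, adjusted p = 0.008, and 0.08 after correction), and lost its call with quantile normalization (adjusted p = 0.11). Its usual partner Cox7a2 did not pass (log2 fold change 0.05, SE 0.07, adjusted p = 0.5). Ndufa4l2, a hypoxia-inducible relative of the complex IV subunit Ndufa4, was at 0.329, 0.0581 and 0.129 and 1.16, 0.869 and 0.502 FPKM, from 2 to 46 reads (log2 fold change 1.85, SE 0.47, adjusted p = 0.0086), and lost its call with quantile normalization (adjusted p = 0.075). Ndufa4 did not pass (log2 fold change 0.16, adjusted p = 0.053). Cox4i2, the form of Cox4i1 found in lung and induced by low oxygen, and Cox6b2, a testis form, had 0 to 6 reads per library, and Cox4i1 rose (log2 fold change 0.55, SE 0.08, adjusted p = 0.00048, 0.13 after correction).

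In complex V, 11 of 17 nuclear genes were called higher and 4 lower, and the direction of the group held after GC and length correction, with 10 higher and 5 lower and a median log2 fold change of 0.48 beside 0.44 before it. The lower genes included both large subunits of the catalytic head. Atp5a1, the alpha subunit, went from 275, 267 and 275 FPKM in NC to 172, 197 and 188 (log2 fold change -0.55, SE 0.07, adjusted p = 0.00019), and Atp5b, the catalytic beta subunit, from 248, 229 and 241 to 158, 185 and 171 (log2 fold change -0.49, SE 0.07, adjusted p = 0.00061). The small subunits of the central stalk rose. Atp5e, the epsilon subunit, went from 7.39 ± 0.399 to 19.7 ± 2.81 FPKM (log2 fold change 1.39, SE 0.11, adjusted p = 1.9e-05) and Atp5d, the delta subunit, from 57.2 ± 1.37 to 104 ± 16.6 (log2 fold change 0.85, SE 0.11, adjusted p = 0.00031). Atp5s, a coupling factor at low level, went from 0.820 ± 0.257 to 2.71 ± 0.320 FPKM (log2 fold change 1.64, SE 0.21, adjusted p = 0.00022). The sum of its nuclear genes was 955 ± 12.4 FPKM in NC and 944 ± 52.6 with RAB6A-siRNA (SD, n = 3), a difference within the spread between libraries.

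Atp5g1, Atp5g2 and Atp5g3 encode the same mature c subunit of the rotor ring with different import sequences. Atp5g2 was at 27.1, 26.3 and 27.2 FPKM in NC, 28.7, 25.7 and 24.0 with SFRP2-siRNA and 61.8, 67.9 and 53.2 with RAB6A-siRNA (log2 fold change 1.17, SE 0.09, adjusted p = 1.8e-05). Atp5g3 was at 32.2, 33.2 and 30.9, 32.7, 27.9 and 34.1 and 25.2, 28.9 and 23.1 FPKM (log2 fold change -0.32, SE 0.09, adjusted p = 0.01). The NC and RAB6A-siRNA libraries did not overlap for either gene. The share of Atp5g2 in the 3 genes was 41.7% ± 0.758 in NC and 65.4% ± 0.832 with RAB6A-siRNA (SD, n = 3), and that of Atp5g3 was 49.9% ± 1.98 and 27.7% ± 0.740. After GC and length correction the differences were 0.74 and -0.30, and quantile normalization ended the call of Atp5g3 (adjusted p = 0.096). Atp5g1 did not pass (log2 fold change 0.25, adjusted p = 0.3). Its own level is uncertain, since the processed pseudogene Gm10039 holds 411 bases of it at 99.8% identity and was at 47.1 FPKM in NC, 44.0 with SFRP2-siRNA and 50.7 with RAB6A-siRNA (means, n = 3). The shares leave out any Atp5g1 reads counted there.

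Sdha with Sdhb and Atp5g2 with Atp5g3 are examples of partner genes that were called in opposite directions with RAB6A-siRNA, and the stretches around their starts are shown for this reason. They were chosen after their values were seen. Each holds the 120 bases before and the 30 bases after the start in RefSeq (GRCm38.p6). They lie at chr13:74350211-74350360 on the minus strand, chr4:140961151-140961300 on the plus strand, chr15:102671018-102671167 on the minus strand and chr2:73911297-73911446 on the minus strand. Capitals mark matches on either strand to the motif of NRF1 in Sdha, Atp5g2 and Atp5g3, and to that of GABP, CCGGAAG, in Sdhb.
Sdha: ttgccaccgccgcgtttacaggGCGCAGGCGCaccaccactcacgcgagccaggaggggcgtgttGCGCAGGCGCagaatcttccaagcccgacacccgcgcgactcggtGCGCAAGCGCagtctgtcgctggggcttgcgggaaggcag
Sdhb: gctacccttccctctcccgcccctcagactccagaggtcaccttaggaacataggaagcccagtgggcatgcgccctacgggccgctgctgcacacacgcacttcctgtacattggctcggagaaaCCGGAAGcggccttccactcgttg
Atp5g2: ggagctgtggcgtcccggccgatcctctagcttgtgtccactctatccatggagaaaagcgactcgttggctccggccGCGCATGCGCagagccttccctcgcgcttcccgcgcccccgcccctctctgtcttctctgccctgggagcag
Atp5g3: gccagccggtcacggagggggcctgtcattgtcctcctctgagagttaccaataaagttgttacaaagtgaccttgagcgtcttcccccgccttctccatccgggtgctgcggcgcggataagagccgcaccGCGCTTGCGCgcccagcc

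Sdha, called lower, held 3 NRF1 motifs, and Atp5g2, called higher, and Atp5g3, called lower, held 1 each. A promoter of 300 bases was found in RefSeq for 74 of the 90 nuclear members. On either strand, 25.7% of these 74 genes held the NRF1 motif, beside 5.19% of 27025 genes with a promoter there. For the motif of GABP the shares were 24.3% and 9.93%, for that of YY1, AAGATGGC, 14.9% and 3.19%, and for the E-box, CACGTG, 8.11% and 8.09%. Over all promoters there, and not only those of members, the motifs of GABP and YY1 overlapped in 1. Among the members, the NRF1 motif was found in 10 of 44 genes called higher, 4 of 10 called lower and 5 of 20 not called with RAB6A-siRNA. In the same order, the counts were 13, 2 and 3 genes for GABP, 6, 2 and 3 for YY1 and 2, 2 and 2 for the E-box. The genes not called include Ndufb2 and Cox6b2, which were under the filter and not tested. A match of letters is not a bound site.

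The direction of the nuclear members varied with their coding length. Of 37 members with under 400 coding bases, 30 were called higher and 0 lower with RAB6A-siRNA by limma (32 higher and 0 lower at an unadjusted p under 0.05). Of 32 members with 400 to under 800 bases, 18 were called higher and 6 lower, and of 18 longer members, 4 higher and 7 lower. Among other nuclear protein-coding genes, the counts were 269 higher and 110 lower of 496 short genes and 2389 higher and 3491 lower of 7761 long genes. Spearman's rho of log2 fold change with coding length was -0.44 over the 87 members and -0.14 over 10050 other genes, as a description across genes of the same libraries. The correction for GC content and length left the shortest members at 17 higher and 8 lower.

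**Figure D4:**
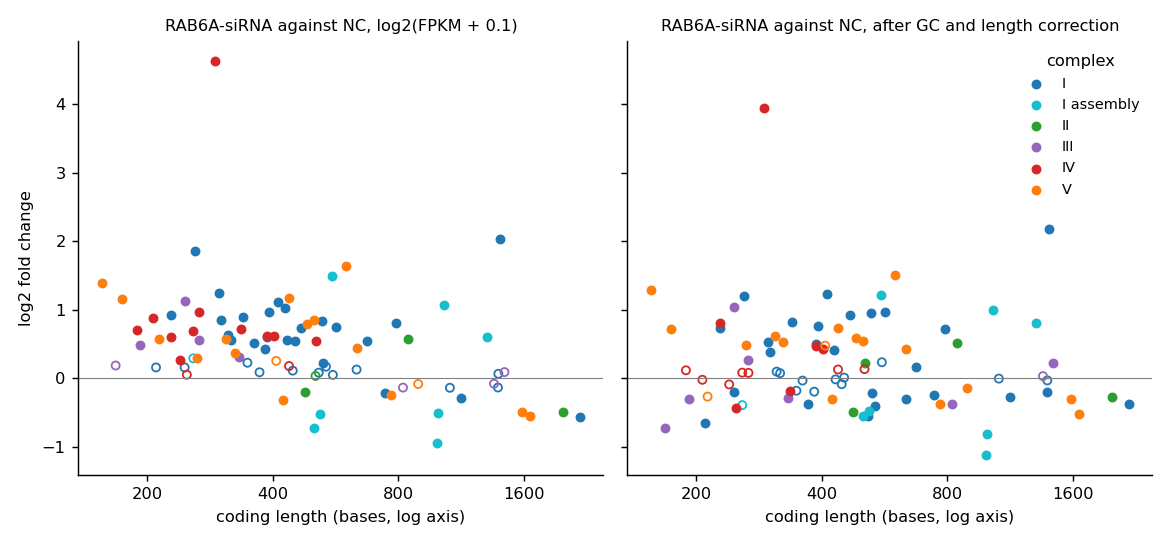
Log2 fold change for RAB6A-siRNA against NC of 87 nuclear members by coding length on a log axis, before (left) and after (right) GC and length correction; colors are complexes and filled points passed an adjusted p of 0.05. On the left all members under 400 bases lie above 0, on the right they lie on both sides of it.

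With SFRP2-siRNA against NC, 0 of 98 members were called by limma, and 0 of all 12017 genes tested (0%). The study, with a count model, reports differentially expressed genes for SFRP2 siRNA in RAW264.7 cells. The lack of calls here therefore does not show that there was no difference. The smallest adjusted p of a member was 0.16, for Cox4i1. With voom on the recovered reads, 1 member was called, Cox4i1 (log2 fold change -0.32, adjusted p = 0.043). The number of all genes called by voom is not given here, so this count cannot be set beside a background. At an unadjusted p under 0.05 there were 39 members, 7 higher and 32 lower, beside 7.73% of all genes that were higher and 10.7% that were lower. In 34 members all SFRP2-siRNA libraries lay below all NC libraries, where this held for 13.9% of all genes. Members under the filter here were Ndufa4l2, Ndufb2, Cox4i2, Cox6b2 and Cox7a1.

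The differences of the nuclear members with SFRP2-siRNA were small, and those of some mitochondrial members were larger. The nuclear members had a median log2 fold change of -0.13, from -0.37 to 0.32, with a lower mean in 65 of 85 genes. The mitochondrial members had a median of 0.19, from -0.25 to 1.03, with a higher mean in 10 of 13. Over all genes the median was -0.01, and after GC and length correction the medians were -0.09 and 0.05. All of these values come with no call.

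Cox4i1, the subunit of complex IV that binds ATP, was at 71.9, 74.1 and 77.2 FPKM in NC and 63.2, 57.1 and 58.4 with SFRP2-siRNA (log2 fold change -0.32, SE 0.05, adjusted p = 0.16). Cox5a, its neighbor in the complex, was at 17.3, 19.0 and 18.2 and 15.5, 13.8 and 14.2 FPKM (log2 fold change -0.32, SE 0.06, adjusted p = 0.17). Uqcrc1, a core protein of complex III, was at 38.5, 36.4 and 40.2 and 32.5, 32.5 and 32.6 FPKM (log2 fold change -0.24, SE 0.05, adjusted p = 0.17). In each of these genes the SFRP2-siRNA libraries lay below the NC libraries without overlap. They were named for a small unadjusted p in this same comparison, so the lack of overlap adds no support.

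In the other complexes, the genes with the smallest unadjusted p were Ndufs7 and Ndufb3 in complex I (log2 fold changes -0.31 and -0.29), Ndufaf6 and Ndufaf4 in its assembly (-0.31 and 0.17), Sdhd and Sdhb in complex II (-0.22 and -0.20), Uqcr10 in complex III (-0.32) and Atp5d and Atp5a1 in complex V (-0.31 and -0.15). Their adjusted p ranged from 0.17 to 0.37. Among mitochondrial genes, mt-Nd6 and mt-Atp8 had SFRP2-siRNA libraries that all lay above NC, at log2 fold changes of 0.61 and 1.03 (adjusted p = 0.2 and 0.21). The same held for 1309 of all 12017 genes tested, so it does not set these 2 genes apart.

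Between RAB6A-siRNA and SFRP2-siRNA, 82 of 100 members were called, beside 73.4% of 12764 genes, with 65 higher and 17 lower beside 37.6% and 35.8% of genes. This comparison shares the RAB6A-siRNA libraries with the one against NC. The nuclear median was 0.54 and the mitochondrial median -1.06 (0.24 and -1.45 after GC and length correction). mt-Nd1 differed by -3.28 (adjusted p = 4.4e-06), mt-Co1 by 1.17 (adjusted p = 0.0011) and Cox6a2 by 4.89 on the log2 scale (adjusted p = 2e-05).

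Genes that serve the chain without belonging to it were read from lists. The expression of mitochondrial DNA depends on nuclear proteins for its copying, transcription and RNA processing. Of 31 such genes tested, 5 were called higher and 21 lower with RAB6A-siRNA, a share of 83.9% beside the 74.1% of all genes (median log2 fold change -0.50, and 6 higher and 19 lower after GC and length correction), and 0 were called with SFRP2-siRNA by limma, with 4 higher and 3 lower at an unadjusted p under 0.05. Fastkd5, which matures mitochondrial transcripts that lack flanking tRNAs, including that of mt-Co1, fell from 2.26, 2.11 and 1.99 FPKM in NC to 0.146, 0.175 and 0.294 (log2 fold change -2.89, SE 0.23, adjusted p = 2.2e-05). Fastkd2, another RNA-binding protein of this family, fell by 1.96 on the log2 scale, and Twnk, the helicase of mitochondrial DNA, fell by 1.57 (adjusted p = 2.3e-06 and 3.2e-06). Primpol, a primase and polymerase of both genomes, rose from 1.53, 1.56 and 1.32 to 6.63, 5.68 and 6.08 FPKM (log2 fold change 1.99, SE 0.10, adjusted p = 3.3e-06), as did Polg2, the accessory subunit of the mitochondrial polymerase, at 1.01, and Hsd17b10, a subunit of mitochondrial RNase P, at 0.53.

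Of 9 nuclear regulators tested, 1 was called higher and 5 lower, a share of 66.7% that is not above the 74.1% of all genes, and 3 were called higher and 5 lower after GC and length correction. Gabpb2, a subunit of GABP, was at 12.5, 12.0 and 11.4 FPKM in NC and 3.66, 3.88 and 4.25 with RAB6A-siRNA (log2 fold change -1.59, SE 0.08, adjusted p = 2.9e-06). Pprc1, a coactivator of the PGC-1 family, and Nrf1, the factor of the motif above, were called lower at -1.32 and -0.68 (adjusted p = 5.5e-06 and 0.00044). Esrra, a nuclear receptor of mitochondrial genes, was called higher at 0.60 (adjusted p = 0.0047). None was called with SFRP2-siRNA by limma, where 1 was higher and 1 lower at an unadjusted p under 0.05.

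Of 24 genes of mitochondrial import and carriers, 7 were called higher and 12 lower with RAB6A-siRNA, a share of 79.2% that is near the 74.1% of all genes (6 higher and 14 lower after GC and length correction). Timm8a1, Timm10 and Tomm5, small proteins of the import machinery, were called lower at -1.57, -1.33 and -1.25, and Timm17b, a channel protein of the inner membrane, Tomm7 and the phosphate carrier Slc25a3 were called higher at 0.85, 0.55 and 0.47. Of 39 further assembly factors and partners, 16 were called higher and 11 lower, a share of 69.2% (16 higher and 13 lower after the correction). Coa7, an assembly factor of complex IV, fell from 5.89, 6.21 and 6.55 FPKM in NC to 0.915, 1.06 and 1.06 (log2 fold change -2.51, SE 0.10, adjusted p = 1.5e-06). Tmem186, a complex I assembly factor, and Taco1, a translational activator of mt-Co1, were called lower at -1.54 and -0.85. Cox19, a copper chaperone for complex IV, Uqcc2, an assembly factor of complex III, and Nubpl, an iron-sulfur protein for complex I, were called higher at 1.34, 1.32 and 1.11. With SFRP2-siRNA, 0 genes of either list were called by limma, and 0 were higher and 6 and 4 lower at an unadjusted p under 0.05.

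**Figure D5:**
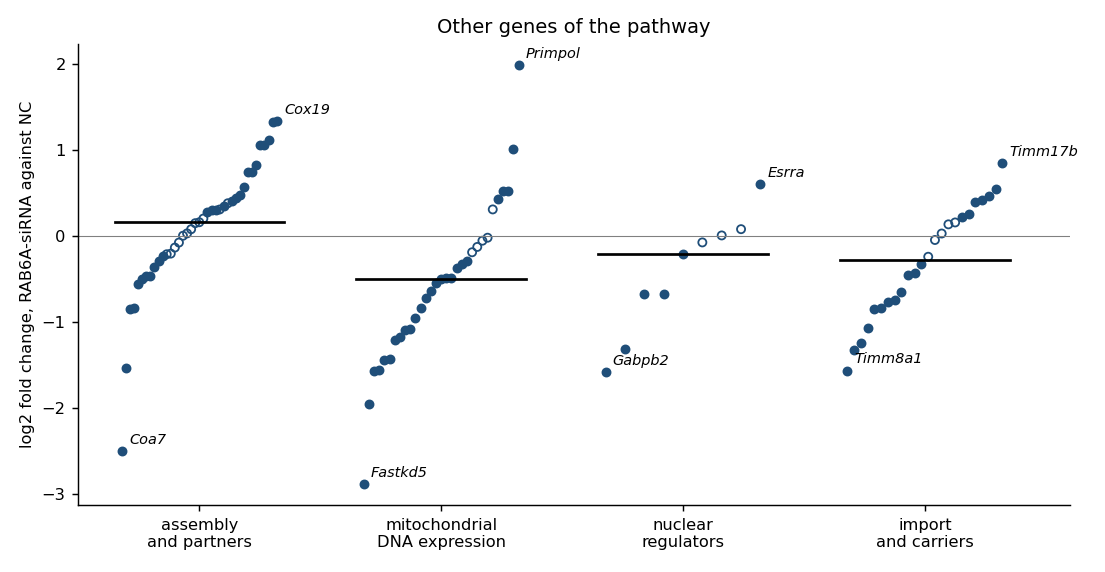
Log2 fold change for RAB6A-siRNA against NC of genes in 4 lists that serve the respiratory chain, where filled points passed an adjusted p of 0.05, bars are medians and the outermost genes are named. In the list for mitochondrial DNA expression, 21 of 31 genes are filled below 0 and 5 above it.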

How the data were processed

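The authors deposited 1 table of FPKM per gene for the 9 libraries, made with HISAT2, Subread and featureCounts per the submitters' processing notes. Their versions, the genome build, the annotation and the use of strand are not given in the sources used here. Gene IDs were matched to GENCODE M21 (27533 of 28137), which gave names, coordinates and exon lengths. FPKM times exon length gave whole reads in all libraries for 27084 genes (98.4% of those named), and totals ran from 32297214 to 46544869 reads per library. Genes of low FPKM or short length rest on few reads (Fastkd5 on 16 to 318 per library, Cox6a2 on 18 to 1278, Ndufb2 on 39 to 128, mt-Nd4l on 60 to 481).

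Each comparison was fitted on its own 6 libraries with limma 3.58.1 (R 4.3.3, empirical Bayes with a trend) on log2(FPKM + 0.1), a scale that understates changes of low genes. Genes with a mean of at least 0.5 FPKM over those libraries were tested, and p-values were two-sided and adjusted by Benjamini-Hochberg over all of them, with a threshold of 0.05. The published methods name a count model, which FPKM does not allow as the main test. The members and gene lists were chosen with earlier results of these data known. Members named are the 13 mitochondrial genes, the 2 largest called rises and falls of each complex (with none called, the 2 smallest p), its 2 most abundant nuclear genes, alternative subunit forms and genes under the filter. From each list, the 3 largest called rises and falls are named. Other core subunits, Cox5b, Cox6c, Cox7a2l, Atp5d, the remaining assembly factors and complex III genes, the pseudogene copies and the macrophage markers were named after their values were seen.

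Alternatives were other pseudocounts and filters, rescaling to genes outside mitochondrial DNA, median-of-ratios and quantile normalization, a correction of each library for GC content and exon length with splines of 5 degrees of freedom, a fit without a trend, all 9 libraries in 1 fit, a replicate block, voom on recovered reads and each library left out. In simulated data for RAB6A-siRNA against NC with 27533 genes, 80 of 100 genes changed by 0.5 on the log2 scale were called. So were 100 of 100 changed by 1, and 8 unchanged genes. For SFRP2-siRNA against NC, these counts were 87, 100 and 10. No other genes were changed and the spread between libraries was fixed, whereas 74.1% of genes were called with RAB6A-siRNA in the data. The simulation therefore does not give power or error under so broad a difference. Copies were searched in the GENCODE transcripts at an identity of at least 95% over at least 100 bases. Python 3.11.15, numpy 2.4.6, pandas 2.3.3, scipy 1.17.1 and matplotlib 3.10.9 were used.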

Additional observations from a re-analysis of the deposited data

How the results depend on the processing

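Of the counts, medians and shares, 340 values over the alternatives kept their direction and size and 17 moved. Of the fold changes of named genes, 1286 kept their direction and their side of the threshold, 53 lost a call, 20 gained one and 40 turned. The cause was not tested for any of these. With RAB6A-siRNA against NC, GC and length correction gave 38 members called lower and medians of 0.081 (nuclear) and -1.45 (mitochondrial), and with the replicate block in addition 37 were called higher and 38 lower, with the same medians. Against SFRP2-siRNA, 26 members were called lower after rescaling, 32 after the correction and 28 with the block and the correction. For SFRP2-siRNA against NC, voom called 1 member, which was lower. The mitochondrial share of the members was 93.4% in NC and 94.8% with SFRP2-siRNA by reads, and 97.9%, 98.7% and 96.1% by medians of the members in NC, SFRP2-siRNA and RAB6A-siRNA. With 1 library left out, 68 to 80 members were called for RAB6A-siRNA against NC (51 to 61 higher, 17 to 21 lower), with medians of 0.45 to 0.58 (nuclear) and -0.81 to -0.54 (mitochondrial), 71 to 79 against SFRP2-siRNA, and 0 for SFRP2-siRNA against NC.

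Directions of named genes turned as follows with RAB6A-siRNA against NC. With the correction, without and with the block, the log2 fold changes were -0.18 for Cox6a1, -0.44 for Cox7a2, -0.090 for Cox7b, -0.023 for Cox8a, -0.20 for Ndufa4, -0.21 for Ndufb10, -0.31 for Uqcr10, -0.29 for Uqcrb, -0.23 for mt-Atp6, -0.62 for mt-Atp8 and -0.77 for mt-Co2. Rescaling gave -0.14 for Cox7a2, -0.034 for Ndufa4 and -0.14 for mt-Co2, for which quantile normalization gave -0.22 and leaving out a library -0.13 (NC replicate 1) to 0.24 (NC replicate 3), with -0.07 without RAB6A-siRNA replicate 1. With SFRP2-siRNA against NC, mt-Co2 was at 0.024 after rescaling and 0.0012 with quantile normalization, and mt-Nd4 and mt-Nd4l were at -0.026 and -0.037 with the correction, without and with the block. With 1 library left out, mt-Co2 ranged from -0.24 to 0.13, mt-Co3 from -0.43 to 0.11, mt-Atp6 from -0.47 to 0.029 and mt-Nd4l from -0.11 to 0.30. Without NC replicate 3, the first 3 of these genes turned to 0.13, 0.11 and 0.015, and mt-Nd4l to -0.11. Without SFRP2-siRNA replicate 1, mt-Atp6 was at 0.029, and without replicate 2, mt-Nd4l was at -0.043.

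The replicate numbers did not pair the libraries. Deviations from the group means of same-numbered libraries correlated at -0.085 to 0.048 across genes, and those of other pairs at -0.12 to 0.082. With the replicate block, 72 members were called with RAB6A-siRNA against NC, 79 against SFRP2-siRNA and 0 for SFRP2-siRNA against NC. Genes with few reads, such as mt-Nd3, Cox7a1 and Ndufa4l2, are limited by depth. Since groups had 3 libraries, an exact permutation test of 1 gene could not go below 0.1.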
